A study of Mus musculus with 6 samples.

Results

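The genes described here encode receptors for the growth factors that feed myeloid colonies, and there were 10 of them among 46983 genes in the deposited tables. They were taken by symbol, and all 10 matched an Ensembl identifier. Kit, Il3ra, Csf2rb, Csf2rb2, Il6ra and Il6st bind or transmit the factors in the medium, which held stem cell factor together with IL-3 and IL-6. Csf2ra, Csf1r, Csf3r and Flt3 serve GM-CSF, M-CSF, G-CSF and FLT3 ligand, which the labels do not list in the medium.

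Both groups came from C57BL/6 mice aged 8 to 11 weeks in the labels. The first group, KO, is labelled Psip1-KO, and the series design calls its mice PsipVav/Vav. The design text does not describe the Vav part. In mice the name usually refers to a Cre driven by the Vav1 promoter, which acts across blood cells. The second group, WT, is labelled wild type, while the design calls its mice PsipFl/Fl, so these controls carry a floxed allele. Each group had 3 libraries of polyadenylated RNA from lineage-depleted marrow cells that had grown in methylcellulose for 6 to 7 days. No label tells whether the replicates are different mice. Sex-linked reads, given below, differ within each group, so the libraries of a group were not all from the same mouse. Whether each library is a different mouse is not known, so p-values measure the spread between libraries, which may be technical in part. Psip1 encodes LEDGF, a chromatin-bound partner of menin and MLL, and the series concerns its role in blood formation and in leukaemia with rearranged MLL.

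These receptors fall into a pair of classes. KIT, CSF1R and FLT3 are receptor tyrosine kinases that dimerise around their ligand and phosphorylate themselves. The others are cytokine receptors without an enzyme of their own. In the receptors of IL-3, GM-CSF and IL-6 an alpha chain binds the factor. A signalling chain (a beta chain or gp130) then carries the Janus kinases that activate STAT proteins. In marrow, KIT marks progenitors and mast cells, CSF1R marks monocytes and macrophages, and CSF3R marks the neutrophil lineage.

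Depth differed widely between libraries. KO libraries held 7056614 to 15569088 gene reads, while WT replicates 1 and 2 held 14332364 and 10418101 and WT replicate 3 held 27909. Levels are given as normalised CPM, which are reads scaled to an effective library of 1000000 reads. In WT replicate 3 a single read was worth 29.87 CPM and the floor for a count of 0, set at 3 reads, was 89.6 CPM, so that library is given in reads, with exact 95% Poisson intervals that cover counting error only. Xist reads marked KO replicate 1 and WT replicate 2 as female, and reads of the Y-linked Eif2s3y marked KO replicates 2 and 3 and WT replicates 1 and 3 as male. Mitochondrial genes took 1.57% to 15.74% of gene reads in KO, the highest in replicate 2, and 1.26% to 9.52% in WT, the highest in replicate 3. Psip1 went with the labels in the deep libraries, at 14.8, 17.6 and 16.3 CPM in KO replicates 1, 2 and 3 and at 89.3 and 70.0 CPM in WT replicates 1 and 2. WT replicate 3 had 3 Psip1 reads, and the log2 fold change was -2.32 (SE 0.32, adjusted p = 0.05995 by edgeR).

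No receptor was called between the genotypes. Of the 10 genes, 9 had enough reads for the test across 12292 genes, and 0 of the 9 passed edgeR's quasi-likelihood test at a Benjamini-Hochberg adjusted p of 0.05, as did 0% of all tested genes. At an unadjusted p under 0.05 the count was also 0 of 9, beside 1.45% of all tested genes, and the lowest unadjusted p was 0.212 (Csf3r). The log2 fold change, KO over WT, was positive for 7 receptors and negative for 2, with a median of 0.43, against a median of 0.01 over all tested genes. Of all 12292 tested genes, 6393 were positive and 5899 negative. Sizes ran from -0.24 (Il6ra) to 0.72 (Csf2rb2). The intervals of 2 standard errors (SE) were wide, from -0.58 to 2.03 for Csf2rb2 and from -1.22 to 1.20 for Csf1r. Differences of up to 2-fold in either direction therefore lay inside the intervals of Kit and Csf1r. In bulk RNA, fewer cells of a type and less RNA per cell cannot be told apart.

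**Figure D1:**
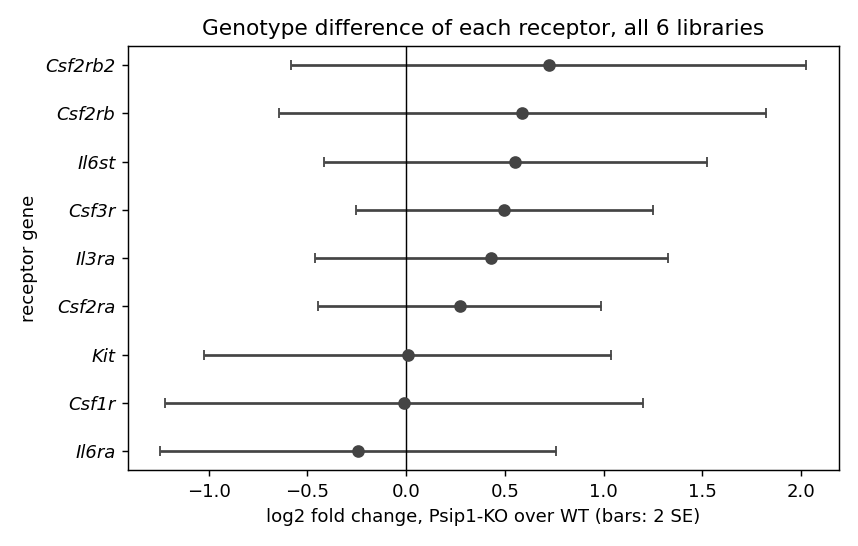
Log2 fold change of the 9 tested receptor genes, Psip1-KO over WT, from edgeR's fit to all 6 libraries; points are estimates and bars are 2 SE. Every bar crosses 0, and the estimates run from -0.24 for Il6ra to 0.72 for Csf2rb2.

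Kit (chromosome 5, 75574916 to 75656722, plus strand, GRCm38) encodes the receptor of stem cell factor. It stood at 112.3, 102.4 and 250.5 CPM in KO replicates 1, 2 and 3 and at 246.4 and 109.4 CPM in WT replicates 1 and 2, with 1 read in WT replicate 3. KO replicate 3 and WT replicate 1 were high, the other deep libraries were low, and the groups overlapped. The log2 fold change was 0.01 (SE 0.52, adjusted p = 1 by edgeR), and its sign turned with scaling by library size alone (-0.03). It was -0.51 without KO replicate 3, -0.22 without WT replicate 2 and -0.20 without WT replicate 3, against 0.77 without WT replicate 1. WT replicate 1 had 2.25 times the level of WT replicate 2, and KO replicate 3 had 2.23 times that of KO replicate 1. Cpa3, which encodes a granule carboxypeptidase of mast cells, was at 1156, 3453 and 2606 CPM in KO replicates 1, 2 and 3 and at 2488 and 854.3 CPM in WT replicates 1 and 2. KO replicate 2 had the highest Cpa3 level and the lowest Kit level of these 5 libraries. Cpa3 had the highest log2 fold change of the 15 mast cell and basophil markers (0.75, SE 0.56), while 11 of them were negative, with a list median of -0.28. The protease genes Mcpt1, Mcpt2 and Mcpt4 were at -2.53, -1.92 and -2.29, each with an adjusted p above the threshold in edgeR.

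The IL-3 and GM-CSF receptors share the beta chain that Csf2rb encodes, and mice carry a second beta gene, Csf2rb2, whose product pairs with the IL-3 alpha chain alone. The genes lie side by side on chromosome 15, Csf2rb at 78325752 to 78353847 on the plus strand and Csf2rb2 at 78282507 to 78305721 on the minus strand. Csf2rb was at 1171, 2042 and 1853 CPM in KO replicates 1, 2 and 3 and at 2023 and 1018 CPM in WT replicates 1 and 2. Csf2rb2 was at 706.7, 1737 and 1404 CPM in the KO libraries and at 1537 and 532.7 CPM in the same WT libraries. In both genes KO replicate 1 and WT replicate 2 formed the low end, and the groups overlapped. The log2 fold changes were 0.59 (SE 0.62) for Csf2rb and 0.72 (SE 0.65) for Csf2rb2, each with an adjusted p = 1 by edgeR.

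Both values shrank without the shallow library. WT replicate 3 had 6 Csf2rb reads (interval 2.20 to 13.1) where the mean of the other WT libraries would give 50.9, and 4 Csf2rb2 reads (interval 1.09 to 10.2) where it would give 34.65. Without WT replicate 3 the log2 fold changes were 0.15 for Csf2rb and 0.30 for Csf2rb2. Without WT replicate 1 they were 1.41 and 1.82, and 3 of 9 receptors then had an unadjusted p under 0.05, as did 740 of 12535 genes, with 0 receptors called. Long transcripts as a class were short of reads in WT replicate 3. For coding genes whose longest transcript had over 4000 and up to 6000 bases its reads were 0.624 of those that WT replicates 1 and 2 would give, against 1.28 for transcripts of up to 1000 bases. Csf2rb and Csf2rb2 have longest transcripts of 4900 and 4740 bases, and the part of length in their values was not tested.

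The coding sequences of these near copies bear on how reads can be assigned. Aligned over 2626 bases they were 95.4% identical, with an identical run of 242 bases. Of the 50-base stretches in the Csf2rb transcript 18.9% also occur in that of Csf2rb2, and of 100-base stretches 7.16%. STAR's gene counter leaves out reads that map to several places. The first 120-base window of coding sequence with no difference, which starts at base 2083 of both coding sequences, and the 120-base stretch with the most differences, 22, are shown from the GENCODE M21 transcripts. Capitals mark bases that differ between the genes.
Csf2rb and Csf2rb2, coding bases 2083 to 2202: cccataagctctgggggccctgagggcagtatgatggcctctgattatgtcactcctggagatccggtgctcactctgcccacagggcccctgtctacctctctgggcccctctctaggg
Csf2rb, coding bases 309 to 428: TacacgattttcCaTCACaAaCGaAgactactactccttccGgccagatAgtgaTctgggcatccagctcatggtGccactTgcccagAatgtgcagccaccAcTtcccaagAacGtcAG
Csf2rb2, coding bases 312 to 431: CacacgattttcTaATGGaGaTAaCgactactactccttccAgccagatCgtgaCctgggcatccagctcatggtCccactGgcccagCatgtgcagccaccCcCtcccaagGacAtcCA

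Within a library the share of the pair's reads that fell on Csf2rb2 does not depend on scaling. It was 37.6%, 46.0% and 43.1% in KO replicates 1, 2 and 3, against 43.2% and 34.4% in WT replicates 1 and 2. The 95% Wilson interval was 42.7% to 43.6% in KO replicate 3, against 42.7% to 43.6% in WT replicate 1 and 33.6% to 35.1% in WT replicate 2. The KO mean was 42.2% ± 4.23 (SD, n = 3) and the WT mean 38.8% ± 6.24 (SD, n = 2), with p = 0.6 (two-sided exact permutation, where 3 against 2 libraries can reach 0.2 at the least). These intervals cover counting error only, since amplified reads are not independent molecules. The share in KO replicate 3 was close to that in WT replicate 1, and the ranges of the genotypes overlapped. WT replicate 3 had 10 reads in the pair and was left out of the shares, which required 20 reads.

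Il3ra (chromosome 14, 14346275 to 14356011), the IL-3 alpha chain, was at 37.2, 78.5 and 30.2 CPM in KO replicates 1, 2 and 3 and at 27.4 and 41.7 CPM in WT replicates 1 and 2, with 2 reads in WT replicate 3. KO replicate 2 stood above every other deep library. The log2 fold change was 0.43 (SE 0.45, adjusted p = 1 by edgeR), and without KO replicate 2, the library with 15.74% mitochondrial reads, it was -0.10. Csf2ra (chromosome 19, 61223957 to 61228429), the GM-CSF alpha chain, was at 396.1, 479.5 and 293.5 CPM in the KO libraries and at 290.3 and 283.8 CPM in WT replicates 1 and 2. It was the 1 receptor of 9 with all KO libraries above both of these WT libraries, a pattern found in 4.79% of all tested genes. KO replicate 3 lay just above the WT libraries, and WT replicate 3, with 15 reads or 448.1 CPM, lay among the KO values. No receptor had all KO libraries below both WT libraries, beside 3.87% of all tested genes. The log2 fold change of Csf2ra was 0.27 (SE 0.36, adjusted p = 1 by edgeR).

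IL-6 binds the alpha chain that Il6ra encodes, and the complex signals through gp130, encoded by Il6st and shared with LIF and oncostatin M. Il6ra (chromosome 3, 89864059 to 89913196) was at 42.3, 30.4 and 92.6 CPM in KO replicates 1, 2 and 3 and at 95.2 and 36.4 CPM in WT replicates 1 and 2. Il6st (chromosome 13, 112464070 to 112510086) was at 70.2, 131.1 and 43.8 CPM in the KO libraries and at 51.0 and 69.0 CPM in the same WT libraries. The chains ran opposite ways: KO replicate 3 and WT replicate 1 were highest for Il6ra and lowest for Il6st, and KO replicate 2 was the reverse. The log2 fold changes were -0.24 (SE 0.50) for Il6ra and 0.55 (SE 0.49) for Il6st, with adjusted p = 1 by edgeR for both. Without KO replicate 2 they were 0.04 for each gene, and without WT replicate 1 Il6ra was at 0.57. WT replicate 3 had 2 Il6ra reads and 0 Il6st reads.

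Il6ra took 37.6%, 18.8% and 67.9% of the reads of this pair in KO replicates 1, 2 and 3, against 65.1% and 34.5% in WT replicates 1 and 2. The KO mean was 41.4% ± 24.8 (SD, n = 3) and the WT mean 49.8% ± 21.6 (SD, n = 2), a difference of -8.39 points with p = 1 by the same exact permutation. Per kilobase of exon the signalling chain exceeded the alpha chain 1.29-fold and 3.36-fold in KO replicates 1 and 2 but stood at 0.369 of it in KO replicate 3. In WT replicate 2 it exceeded the alpha chain 1.48-fold, and in WT replicate 1 it stood at 0.417 of it. The order of the chains thus differed between libraries of 1 genotype.

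**Figure D2:**
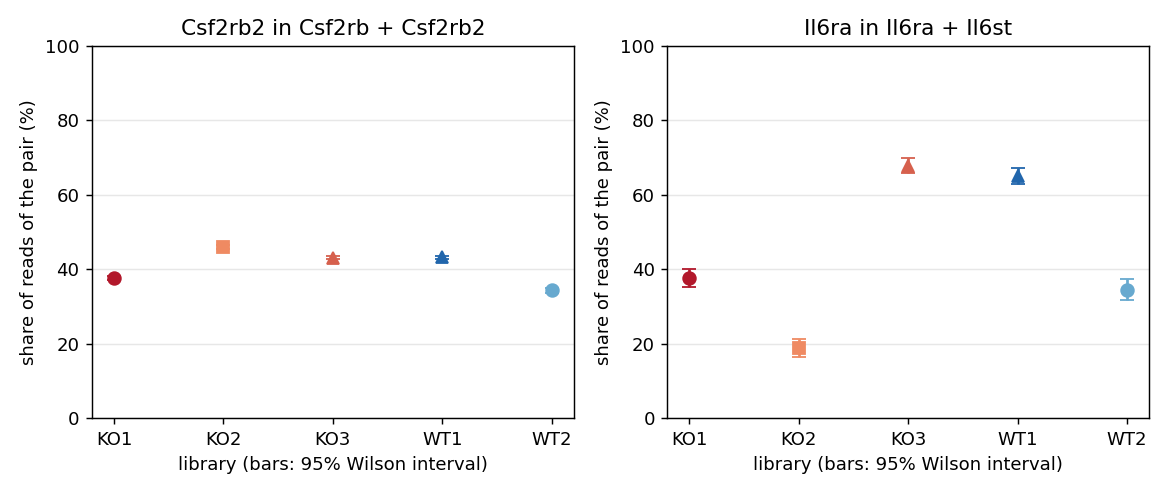
Share of reads within 2 receptor pairs in each deep library, with 95% Wilson intervals; left, Csf2rb2 among Csf2rb and Csf2rb2, right, Il6ra among Il6ra and Il6st. The Csf2rb2 share lies between 34.4% and 46.0%, and the Il6ra share spreads from 18.8% in KO replicate 2 to 67.9% in KO replicate 3.

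Promoters of receptors that shared a pattern across libraries, and of those that ran the other way, were read for the core motif of PU.1, a master factor of myeloid genes. The letters searched were GAGGAA on either strand, in 300 bases that span 250 before and 50 after the start (RefSeq, GRCm38.p6). Promoters were read for 8 receptors, at the first listed start of each. Csf2rb had no listed promoter. Csf1r was not read because its chromosome, 18, was left out of the receptor promoters. Of the 8, 5 held the core (Kit, Il6ra, Csf2rb2, Csf2ra and Csf3r). The share was 28.3% over all 32851 promoters, where a gene can have several. Kit and Il6ra, high in KO replicate 3 and WT replicate 1, are shown beside Il3ra and Il6st, low in those libraries (for Kit, the first of its listed starts). Among the other receptors, Csf2ra and Csf3r, which were not high in those libraries, also hold the core, and no Csf1r promoter was read. Csf2rb2, which holds it too, was highest in KO replicate 2 (1737 CPM), above WT replicate 1 and KO replicate 3 (1537 and 1404 CPM). Whether the core goes with this split was not tested. Capitals mark the core, which is absent from the windows of Il3ra and Il6st. A match is a description of letters and not evidence of binding.
Kit, chr5:75574737-75575036, plus strand: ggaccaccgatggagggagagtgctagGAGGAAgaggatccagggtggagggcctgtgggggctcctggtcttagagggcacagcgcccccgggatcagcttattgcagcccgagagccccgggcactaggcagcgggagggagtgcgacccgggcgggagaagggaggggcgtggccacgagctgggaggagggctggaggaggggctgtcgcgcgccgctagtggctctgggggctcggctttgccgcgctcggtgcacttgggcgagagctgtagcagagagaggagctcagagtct
Il6ra, chr3:89913147-89913446, minus strand: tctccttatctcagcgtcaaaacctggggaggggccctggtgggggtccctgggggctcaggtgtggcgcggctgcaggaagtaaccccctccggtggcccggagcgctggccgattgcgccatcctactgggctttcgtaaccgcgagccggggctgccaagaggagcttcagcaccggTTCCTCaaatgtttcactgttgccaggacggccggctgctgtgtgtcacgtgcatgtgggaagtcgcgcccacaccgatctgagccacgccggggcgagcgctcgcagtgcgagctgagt
Il3ra, chr14:14346245-14346544, plus strand: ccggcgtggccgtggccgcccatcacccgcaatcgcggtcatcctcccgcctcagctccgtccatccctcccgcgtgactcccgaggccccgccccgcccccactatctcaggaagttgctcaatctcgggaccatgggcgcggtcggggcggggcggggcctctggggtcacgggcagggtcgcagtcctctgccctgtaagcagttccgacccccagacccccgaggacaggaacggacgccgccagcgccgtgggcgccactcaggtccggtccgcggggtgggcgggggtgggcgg
Il6st, chr13:112463820-112464119, plus strand: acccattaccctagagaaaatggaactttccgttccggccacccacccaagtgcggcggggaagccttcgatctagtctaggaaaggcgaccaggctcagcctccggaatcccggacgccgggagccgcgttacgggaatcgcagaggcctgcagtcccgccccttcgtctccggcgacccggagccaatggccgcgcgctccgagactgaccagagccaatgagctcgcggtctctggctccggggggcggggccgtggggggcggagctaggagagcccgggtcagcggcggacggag

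Csf3r (chromosome 4, 126024550 to 126044440) encodes the G-CSF receptor of neutrophils and their precursors. It was at 254.2, 171.8 and 141.3 CPM in KO replicates 1, 2 and 3 and at 149.3 and 144.2 CPM in WT replicates 1 and 2, with 2 reads in WT replicate 3. KO replicate 1 stood highest, while KO replicate 3 fell below both WT libraries. The log2 fold change was 0.50 (SE 0.38, adjusted p = 1 by edgeR), and without KO replicate 1 it was 0.24. The 15 neutrophil markers, all tested, summed to 37560 to 91760 CPM in KO and to 47810 and 103400 CPM in WT replicates 1 and 2. Their sum was high in KO replicate 1 and in WT replicate 2, whereas Csf3r was high in KO replicate 1 alone. Of these 15 markers 4 had a positive and 11 a negative log2 fold change, with a list median of -0.33, and 0 were called.

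The M-CSF receptor gene Csf1r (chromosome 18, 61100598 to 61132149) had the widest log2 range of the 9 tested receptors over the 5 deep libraries (1.87). It was at 158.1, 168.8 and 442.3 CPM in KO replicates 1, 2 and 3 and at 485.1 and 132.6 CPM in WT replicates 1 and 2, with 2 reads in WT replicate 3. Each genotype had 1 library far above the rest. The log2 fold change was -0.01 (SE 0.61, adjusted p = 1 by edgeR), and its sign turned with the size factors of DESeq2 (0.01). It was 1.19 without WT replicate 1 and -0.64 without KO replicate 3. Of 15 monocyte and macrophage markers 14 were tested, and they summed to 2271, 2338 and 3866 CPM in KO replicates 1, 2 and 3 and to 3650 and 2030 CPM in WT replicates 1 and 2. Of the 14, 9 were negative, with a median of -0.30, among them the complement gene C1qa (-2.35, SE 0.67), while Cd68 was at 0.37 (SE 0.39). Ly86 was listed at 0 in each library. The libraries high for Csf1r were also the ones high for this sum, and the part of cell makeup in the Csf1r values was not tested.

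Flt3, the receptor of FLT3 ligand on early progenitors and dendritic cell precursors, had 1, 2 and 2 reads in KO replicates 1, 2 and 3 and 2, 7 and 0 reads in WT replicates 1, 2 and 3. It was too scarce to test. The 6 tested of 11 dendritic cell markers summed, with the untested ones, to 423.7 to 744.2 CPM in KO and to 342.7 and 462.5 CPM in WT replicates 1 and 2, and Cd209a was listed at 0 throughout.

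**Figure D3:**
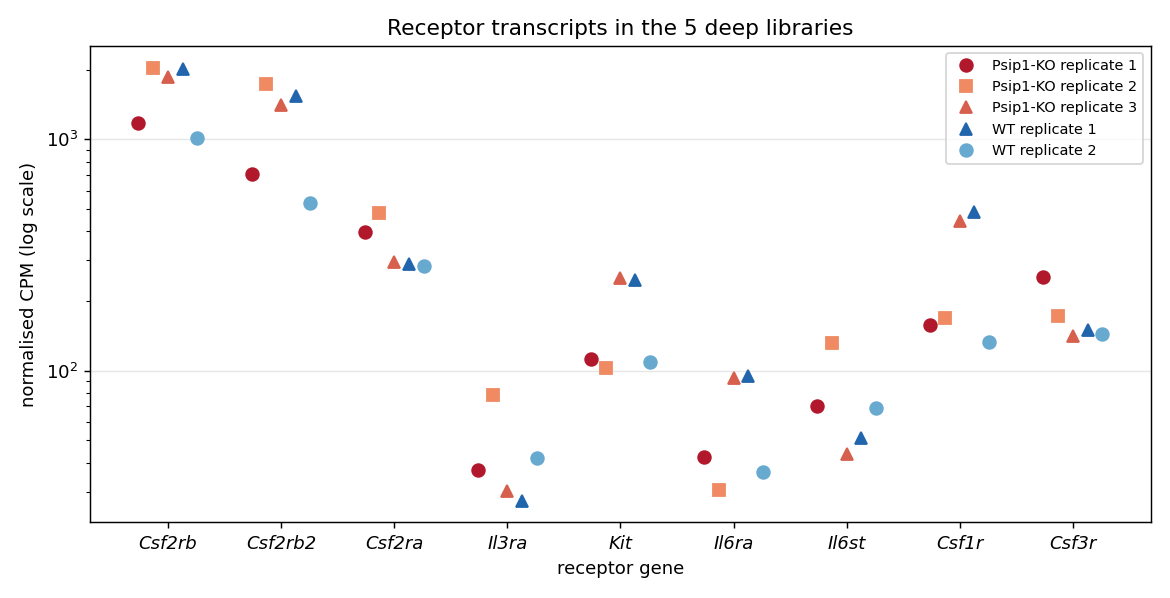
Normalised CPM (log axis) of 9 receptor genes in the 5 deep libraries, with KO libraries in red tones and WT libraries in blue. Triangles (KO replicate 3 and WT replicate 1) lie close together for each gene, as at 442.3 and 485.1 CPM for Csf1r.

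Per kilobase of exon the beta chains were the most abundant receptor transcripts. In RPKM, which divides CPM by exon length in kilobases, Csf2rb2 ran from 112.4 to 366.5 over the 5 deep libraries with a median of 296.3, and Csf2rb from 139.9 to 280.7 with a median of 254.6. Their ranges overlapped, and their order turned when the longest transcript was used as the length. Csf2ra followed at 98.8 to 167 RPKM, then Csf3r at 39.1 to 70.4, Csf1r at 23.0 to 84.0, Kit at 11.5 to 28.1 and Il3ra at 9.25 to 26.5. Il6st, at 3.95 to 11.8, and Il6ra, at 3.52 to 11.0, stood lowest apart from Flt3, whose highest level was 0.111 RPKM. Ranges of neighbours in this order overlapped except between Csf2ra and Csf3r and between Il6ra and Flt3. Beta chain transcripts exceeded alpha chain transcripts of the IL-3 and GM-CSF receptors in every deep library, by 2.06-fold, 3.35-fold and 4.90-fold in KO replicates 1, 2 and 3 and by 5.46-fold and 2.24-fold in WT replicates 1 and 2. All 10 genes together took 0.295%, 0.443% and 0.443% of gene reads in KO replicates 1, 2 and 3, against 0.472% and 0.232% in WT replicates 1 and 2.

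The libraries closest in receptor levels were of opposite genotype. KO replicate 3 and WT replicate 1, both male, differed by a median of 0.13 on the log2 scale over the 9 receptors and by at most 0.22 (Il6st). Over 9063 genes with at least 10 CPM the median difference of that pair was 0.12. KO replicate 1 and WT replicate 2, both female, differed by a median of 0.22 and by at most 0.82 (Csf3r), where all 9063 genes had a median of 0.19. Within WT, replicates 1 and 2 differed by a median of 0.99 and by up to 1.87 (Csf1r), where all 9063 genes had a median of 0.51. Within KO, replicates 3 and 2 were the most distant, with a median of 1.29 and differences of up to 1.61. Replicates 1 and 2 differed by a median of 0.57, and replicates 1 and 3 by a median of 0.85. Over all 9063 genes the medians of these KO pairs were 0.47, 0.30 and 0.38, in the same order. Against WT replicate 1, KO replicate 2 was 2.86-fold higher for Il3ra and 2.57-fold higher for Il6st, and stood at 0.319 of it for Il6ra and 0.348 for Csf1r.

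**Figure D4:**
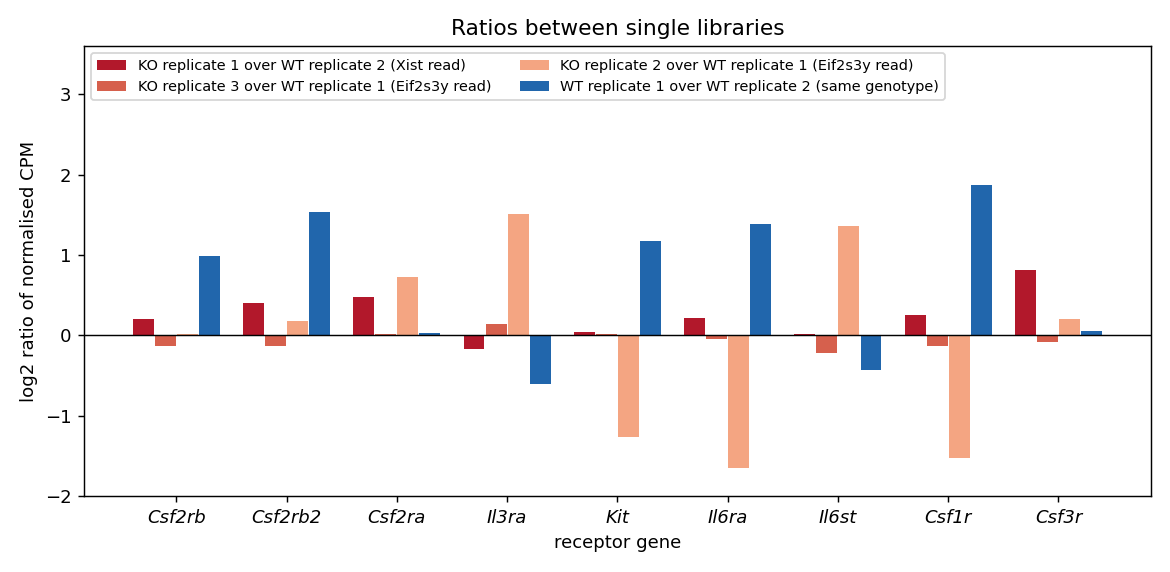
Log2 ratio of normalised CPM between single libraries for 9 receptors, in 3 KO over WT pairs of the same sex and in 1 pair within WT. KO replicate 3 over WT replicate 1 stays within 0.22 of 0, whereas WT replicate 1 over WT replicate 2 reaches 1.87.

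With sex as a second term, a fit added after the values had been seen, the receptor log2 fold changes ran from -0.25 (Il6ra) to 0.66 (Csf2rb2) and 0 of 9 were called by edgeR. Each genotype had 1 female library, and KO replicate 2, a male library, did not follow the other deep males. Sex and other differences between these libraries cannot be told apart.

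A measure of the libraries moved with Kit, Csf1r and Il6ra. Coding genes with a longest transcript of over 4000 bases took 31.6%, 28.6% and 39.6% of coding reads in KO replicates 1, 2 and 3, against 40.0%, 29.1% and 25.1% in WT replicates 1, 2 and 3. The libraries at 39.6% and 40.0% were those with the highest levels of these 3 genes, whose longest transcripts have 5241, 4701 and 8639 bases. Il6st, with 8678 bases, was lowest in the same libraries. Csf2rb and Csf2rb2, with 4900 and 4740 bases, were highest in KO replicate 2, at 28.6% (2042 and 1737 CPM). The libraries at 40.0% and 39.6% came next for both genes. The part of transcript length in these receptor values was not tested.

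**Figure D5:**
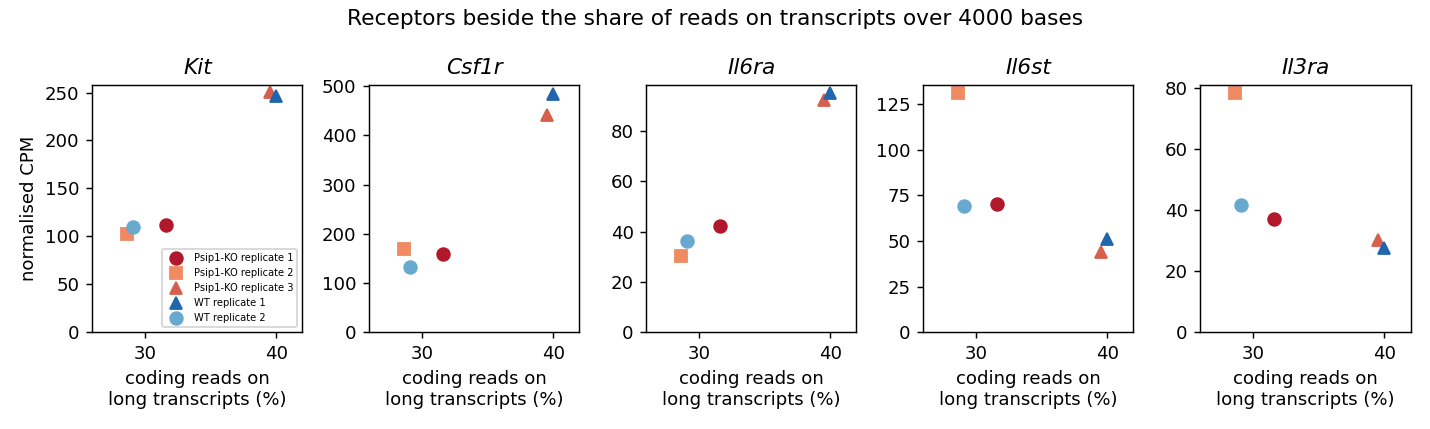
Normalised CPM of Kit, Csf1r, Il6ra, Il6st and Il3ra against the share of coding reads on genes with a longest transcript over 4000 bases, 1 point per deep library. The libraries at 39.6% and 40.0% are high for Kit, Csf1r and Il6ra and low for Il6st and Il3ra.

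The genes most like each receptor were sought over the 5 deep libraries, among 6243 genes of at least 30 CPM, by the root mean square difference of centred log2 CPM. Kit was closest to Asah1, a lysosomal ceramidase (0.040), Cltc, the clathrin heavy chain (0.046), and Arl8b, a lysosomal GTPase (0.051). Csf1r was closest to the phosphatase gene Ptprj (0.045), to Skil (0.059) and to Sema4d (0.072), and Il6ra to Alg10b (0.048), Vps35, a retromer subunit (0.054), and Qk, an RNA-binding protein (0.058). Csf2rb was closest to Galnt6 (0.038), Map4k4 (0.060) and the microglial and macrophage receptor gene Trem2 (0.061). Csf2rb2 was closest to Cd274, which encodes PD-L1 (0.104), Rnf128 (0.105) and Camta2 (0.107). Il3ra was closest to the retinoic acid receptor gene Rara (0.076), Arl4c (0.080) and Cdk11b (0.110), and Il6st to the transglutaminase gene Tgm1 (0.067), to Cdk11b (0.083) and to the chemokine receptor gene Ccr2 (0.092). These distances describe 5 libraries only. Csf2ra and Csf3r varied by less than 1 log2 unit and were not matched.

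Below the receptors, 0 tested genes of the 6 pathway lists were called in either direction. The Janus kinases and STAT proteins were all tested, 6 of 11 above and 5 below 0, with a median of 0.03. Jak2, the kinase bound by the beta chains, was at 0.18 (SE 0.50), and Jak1, a main kinase at gp130, at 0.03 (SE 0.54). Stat5a, Stat5b and Stat3, which carry the IL-3 and IL-6 signals, were at 0.06 (SE 0.32), -0.00 (SE 0.34) and -0.06 (SE 0.36). The lowest p in this group was that of Stat4 (-0.96, SE 0.48, unadjusted p = 0.0682 and adjusted p = 1 by edgeR), followed by Stat2 (0.26). Jak1 was at 245.3, 205.8 and 424.3 CPM in KO replicates 1, 2 and 3 and at 466.9 and 241.7 CPM in WT replicates 1 and 2, the same order of libraries as Csf1r at its upper end.

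Adaptors and kinases below the receptors had 11 of 25 members above 0 and a median of -0.06. Pik3cd, a catalytic subunit of PI3 kinase, was at 0.30 (SE 0.34). Negative regulators had 14 of 20 above 0, beside 6393 of all 12292 tested genes, and a median of 0.08. Socs2, a feedback inhibitor induced by STAT5, was at 17.5, 32.6 and 19.7 CPM in KO replicates 1, 2 and 3 and at 13.7 and 14.4 CPM in WT replicates 1 and 2 (log2 fold change 0.57, SE 0.47, adjusted p = 1 by edgeR), and the adaptor gene Dok3 was at 0.34 (SE 0.42). Among target genes of cytokine signalling 13 of 17 were above 0, beside the same share of all tested genes, with a median of 0.18. Ccnd2, the cyclin D2 gene that STAT5 can induce, was at 156.8, 224.0 and 191.2 CPM in KO replicates 1, 2 and 3 and at 114.7 and 112.1 CPM in WT replicates 1 and 2, with 2 reads in WT replicate 3. All KO libraries stood above both deep WT libraries, a pattern found in 4.79% of all tested genes. Its log2 fold change of 0.84 (SE 0.34) had an unadjusted p = 0.0316 and an adjusted p = 1 by edgeR, and it was the 1 gene of 109 tested pathway genes (0.917%) with an unadjusted p under 0.05, a share below the 1.45% of all tested genes. Gadd45g was at 0.67 (SE 0.43).

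Ligand genes of these receptors were mostly scarce. Il3 had at most 4 reads and Kitl at most 11 in any library. Of 12 listed, 4 were tested (Il6, Lif, Csf1 and Osm), all above 0, with a median of 0.72. Il6 itself was at 76.2, 358.5 and 39.7 CPM in KO replicates 1, 2 and 3 and at 63.1 and 90.7 CPM in WT replicates 1 and 2 (log2 fold change 1.13, SE 0.72, adjusted p = 1 by edgeR). KO replicate 2 set this value, which was -0.32 without that library. Lif, another gp130 ligand, was likewise highest in KO replicate 2 at 254.9 CPM, with 63.3 and 81.3 CPM in the other KO libraries and 57.5 CPM in WT replicate 2, while WT replicate 1 was at 100 CPM.

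Other cytokine and growth factor receptors had 24 of 32 tested members above 0, beside 6393 of all 12292 tested genes, and a median of 0.10. The lowest p belonged to Ghr (1.38, SE 0.79), a gene of at most 14 reads whose value was 3.68 without WT replicate 2 and 0.11 in DESeq2, and to Il11ra1 (0.84, SE 0.51). Il5ra, the IL-5 alpha chain that pairs with the common beta chain, had 15, 19 and 214 reads in KO replicates 1, 2 and 3 and 147, 10 and 0 in WT replicates 1, 2 and 3 (log2 fold change 0.11, SE 1.00). The 8 eosinophil markers, cells that depend on IL-5, summed to 515.4, 1011 and 1812 CPM in the KO libraries and to 1731 and 612.3 CPM in WT replicates 1 and 2. The libraries highest for Il5ra were also highest for this sum.

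Markers of other cell types that the cultures could hold were also summed. Erythroid markers summed to 20.9 to 144.1 CPM in KO and to 47.7 and 156.3 CPM in WT replicates 1 and 2, and stem and progenitor markers to 85.0 to 106.3 CPM and to 111.2 and 77.6 CPM. Lymphoid markers summed to 282.8 to 396.2 CPM in KO and to 566.8 and 422 CPM in WT replicates 1 and 2, with Cd3e and Cd3g at 0 in every library. Stromal and endothelial markers summed to 139 to 192.2 CPM in KO and to 141.4 and 253.1 CPM in these WT libraries, with Cxcl12 at 0. Megakaryocyte markers summed to 856 to 1347 CPM and to 840.3 and 1196 CPM, and mast cell and basophil markers to 3398 to 10420 CPM and to 6341 and 5256 CPM, KO before WT in each case. At an unadjusted p under 0.05, 3 of 15 mast cell and basophil markers and 2 of 14 monocyte and macrophage markers were lower in KO, beside 0.212% of all tested genes. In the other direction 1 of 7 eosinophil markers was higher, beside 1.24% of all tested genes. None of these was called by edgeR. The marker lists were chosen with earlier results of these data known. These shares therefore describe the lists and are not a test of them.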

How the data were processed

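Polyadenylated RNA of 6 samples was made into stranded libraries (TruSeq), per the labels' protocols. The deposited counts are raw reads per gene in the layout of STAR's gene counter, with STAR 2.5.1b, GRCm38 and DESeq2 named per the submitters' processing notes. The annotation release and read length are not given in the sources used here. Column 4, the strand opposite to the read, held 95.6% to 97.5% of stranded gene reads and was used. Rows that name no gene held 25.7% to 39.9% of reads in KO and 25.6% to 47.8% in WT, and stayed out of library sizes and tests. Both runs of WT replicate 3 (27351 and 558 gene reads) were summed.

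Identifiers were matched without version to GENCODE M21 (46488 of 46983), and for 5 receptors the version differed. Genes were filtered with filterByExpr, scaled by TMM and tested with edgeR 4.0.16 (glmQLFit, robust, then glmQLFTest, two-sided), genotype only, on all 6 samples, adjusted over 12292 genes. SE is the log2 fold change over the root of F. RPKM uses the union of exons. Alternatives covered scaling, filters, strand, runs, DESeq2 1.42.0, the replicate number as a block and each library left out.

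The receptors and lists were chosen with earlier results of these data known. Named were all receptors, Psip1, Jak1, Jak2, Stat3, Stat5a, Stat5b, Il5ra, Mpo, Cpa3, Cd68, the 2 lowest p of each pathway list and 3 genes most like each receptor with 30 CPM and a range of 1 log2 unit. Il3, Kitl, Mcpt1, Mcpt2, Mcpt4, C1qa and marker genes at 0 were named after their values were seen. Mpo was at 2774, 843 and 558.6 CPM in KO and 720 and 3036 CPM in WT replicates 1 and 2, and Cd68 at 314.4, 486.5 and 564.4 CPM and at 453.1 and 230.5 CPM, KO before WT. Flt3l is not analysed here, and a gene that this rule names is not reported here.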

Additional observations from a re-analysis of the deposited data

How the results depend on the processing

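Receptors called stayed at 0 and pathway genes called stayed at 0 under every alternative run. The number of all genes called, 0, became 2 with library size only, 9 with no filter, 1 with DESeq2, 12 with DESeq2 without WT replicate 3, 4 with sex as a term (chosen after seeing the data), 4 at a threshold of 0.1 and 0 to 5 when 1 library was left out. With the replicate number as a block (replicate block) it was 13. Same-numbered libraries had correlations of -0.275, -0.102 and -0.202 in their deviations from the group mean. No KO library correlated best with its own number. The best were KO replicate 3 with WT replicate 1 (0.431), KO replicate 1 with WT replicate 2 (0.229) and KO replicate 2 with WT replicate 3 (0.185). WT replicate 3, with 27909 gene reads, is part of the WT mean, so its counting noise enters all of these values. The correlations therefore cannot decide the pairing. No label states a pairing, and the numbers were not taken as pairs. DESeq2, run with its own filter on 22237 genes, gave a median of all genes of -0.318, where edgeR with no filter on as many genes gave 0.0788. Leaving out WT replicate 1 gave 0.134, against 0.0128 over 12292 genes. Psip1 was called with no filter (-2.29), with the block (-2.33), with sex as a term (-2.34) and with DESeq2 without WT replicate 3 (-2.32).

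Of the alternative values for the receptors 135 kept their direction and 18 did not. With DESeq2 without WT replicate 3 Kit was at -0.21, Jak1 at -0.29 and Jak2 at -0.081. Kit was at -0.030 with library size only, -0.0028 with the block and -0.039 with sex as a term. Csf1r was at 0.010 with the size factors of DESeq2, 0.021 with no filter, 0.023 with 10 reads in 2 libraries, 0.13 with DESeq2 and 0.14 with the block. Jak1 was at -0.0090 with library size only, and Il5ra at -0.59 with the block and -0.0505 with sex as a term. Stat5b was at 0.026 with the size factors of DESeq2, 0.029 with no filter, 0.027 with 10 reads in 2 libraries, 0.050 with DESeq2 and 0.11 with the block. With 1 library left out Kit ran from -0.51 to 0.77, Il3ra from -0.10 to 0.72, Il6ra from -0.83 to 0.57, Csf1r from -0.64 to 1.19, Jak1 from -0.32 to 0.73, Jak2 from -0.065 to 0.72, Stat3 from -0.20 to 0.14, Stat5a from -0.082 to 0.16, Stat5b from -0.12 to 0.14, Il5ra from -1.47 to 2.72, Mpo from -1.40 to 0.23 and Il6 from -0.32 to 1.62. The difference in the Csf2rb2 share ran from -0.938 to 7.88 points and that in the Il6ra share from -23.7 to 6.89. Except for the length of transcripts used for Kit (21.4 RPKM) and Csf2rb (378.1 RPKM), levels per length moved by less than their spread. The causes were not tested. WT replicate 3 had 34 reads on the 9 tested receptors where the other WT libraries would give 121.7. The part of this library in the precision of each fold change was not tested.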
